A study of Mus musculus with 23 samples.

Results

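The comparison described here set DCS-treated heterozygous brain against vehicle-treated wild-type brain, and so asked which transcripts differed from the untreated wild type after the mutant had been treated. It used 12 of the 23 RNA-seq libraries of the study, 6 in each group, chosen by the genotype and treatment in their labels, and all 17256 genes of 18848 whose mean was at least 10 normalised reads over the 23 libraries. HT DCS mice carried the Grin2b C456Y mutation on 1 allele and received DCS. WT vehicle mice were wild type and received vehicle. The other groups, whose values are given beside these, were HT vehicle (6 libraries) and WT DCS (5 libraries). All mice were male C57BL/6J at postnatal day 17. The sources used here do not give the dose, route and timing of DCS, the tissue is labelled brain with no region, and separate mice behind the libraries are not stated, so the p-values measure the spread between these libraries, which may be technical.

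NMDA receptors are ion channels that open when glutamate and a co-agonist, glycine or D-serine, are both bound. GluN2B, the product of Grin2b, is the glutamate-binding subunit that predominates in the young forebrain, and variants of it are known from neurodevelopmental disorders. D-cycloserine, usually shortened to DCS, is a partial agonist of the co-agonist site and raises receptor activity when that site is not saturated.

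Normalised reads summed to between 32.3 M and 33.1 M in the HT DCS libraries and between 32.8 M and 33.2 M in the WT vehicle libraries. From the spacing of low values, unscaled depth was estimated as about 25.8 M to 35.1 M reads in HT DCS and 29.2 M to 37.5 M in WT vehicle. Pearson's r between any pair of libraries lay between 0.9848 and 0.9913, and no pair was identical. Neuronal Snap25 and Rbfox3, astrocytic Gfap and oligodendrocytic Mbp were read in every library. HT DCS replicates 5 and 6 had the lowest levels of genes that mark the caudal hindbrain. Their 9 measured Hox genes, which the rostral brain does not express, summed to 34.35 and 42.92 normalised reads, while the other HT DCS libraries had 155.3 to 281.1 and the WT vehicle libraries 144.2 to 327.8. HT vehicle ran from 80.48 to 257.6, with replicates 3, 4 and 6 at 131.4, 80.48 and 85.08, and WT DCS from 143.8 to 316.2. Many of the results below are given with and without HT DCS replicates 5 and 6.

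None of the NMDA receptor subunit mRNAs passed the test, the targeted gene included. Grin2b (ENSMUSG00000030209, a protein-coding gene on the minus strand of GRCm38 chromosome 6 at 135713233 to 136173511) had 15560, 19260 and 20960 normalised reads as the lowest, median and highest HT DCS library, against 16320, 18040 and 19270 in WT vehicle. Its means were 18950 ± 1882 in HT DCS, 18270 ± 1885 in HT vehicle, 18770 ± 2543 in WT DCS and 17910 ± 1189 in WT vehicle (SD, n = 6, 6, 5 and 6). The groups overlapped. HT DCS lay 0.08 log2 units above WT vehicle (95% interval -0.10 to 0.25, limma, adjusted p = 0.894). The difference was -0.05 within replicates 1 to 3, 0.20 within replicates 4 to 6 and 0.03 without HT DCS replicates 5 and 6. Reads of both alleles are summed in the table, so the mutation itself cannot be seen in it. Grin1, which encodes the GluN1 subunit present in every NMDA receptor, averaged 20890 normalised reads in HT DCS, against 21030 in WT vehicle, a log2 difference of -0.01 (95% interval -0.08 to 0.06). Grin2a, the GluN2A subunit that gains weight as the brain matures, averaged 5767 in HT DCS and 5649 in WT vehicle. Of the 7 subunit genes, 4 had a higher and 3 a lower mean in HT DCS, and 0 reached an unadjusted p under 0.05. The median log2 difference of the list was 0.03, beside -0.0008 over all genes.

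No gene passed an adjusted p of 0.05 (limma with Benjamini-Hochberg adjustment over 17256 genes, 0% in either direction), and the smallest adjusted p was 0.262. At an unadjusted p under 0.05, 534 genes were higher in HT DCS (3.09%) and 705 were lower (4.09%), together 7.18% of those tested. Without HT DCS replicates 5 and 6 these counts were 314 and 359, again with 0 genes past the adjusted threshold. If no gene differed, about 863 of the 17256, both directions together, would be expected at an unadjusted p under 0.05. Libraries of HT DCS lay entirely above those of WT vehicle for 23 genes (0.133%) and entirely below them for 31 genes (0.18%). Differences were small: 95% of genes lay within 0.32 on the log2 scale, a 1.252-fold difference, and the median standard error was 0.07. The means of 8708 genes (50.5%) were lower in HT DCS. For HT vehicle against WT vehicle, which shares the WT vehicle libraries, the same fit gave 0 genes past the adjusted threshold and 378 higher and 351 lower at an unadjusted p under 0.05. For HT DCS against HT vehicle it gave 0 past the threshold, 383 higher and 445 lower. In both contrasts the number expected if no gene differed was again about 863 of 17256, both directions together.

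**Figure D1:**
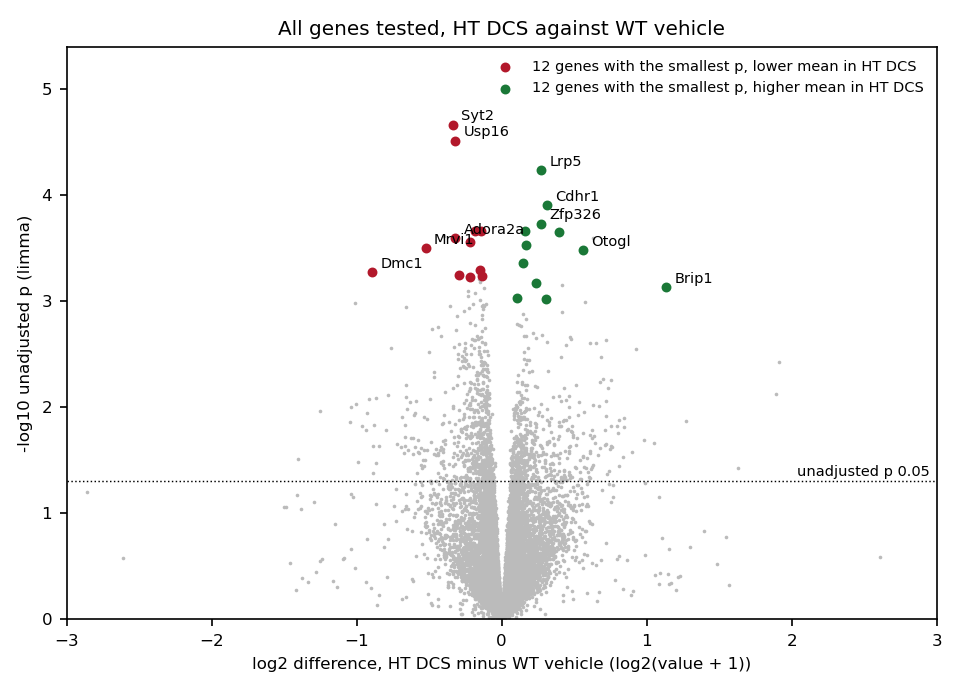
Each point is 1 of the 17256 genes tested, with the log2 difference of HT DCS minus WT vehicle on the x axis and -log10 of the unadjusted limma p on the y axis (2 genes lie beyond 3 log2 units and are not drawn). Predicted gene models aside, the 12 genes with the smallest p in each direction are coloured. Syt2 and Usp16 stand highest, and no gene passed the adjusted threshold of 0.05.

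The genes named next are the 12 with the smallest p in each direction, without predicted gene models, with members of gene lists beside them. Cplx1, Hpcal1, Kcnab1, Scn4b, Rasd2, Drd2, Penk and Tbx21, for example, are named as list members and are not among the 12. None passed the adjusted threshold, so the values are descriptions of where these libraries differed most. Several of the lower ones act at the presynaptic terminal. Syt2 (chromosome 1, 134646677 to 134762593, plus strand) encodes synaptotagmin-2, a fast calcium sensor of vesicle fusion that is abundant in hindbrain neurons and in the terminals of parvalbumin interneurons. Its lowest, median and highest values were 3967, 4458 and 5082 normalised reads in HT DCS, against 5199, 5681 and 5895 in WT vehicle. All 6 HT DCS libraries lay below all 6 WT vehicle libraries. Means were 4448 ± 421.9 in HT DCS, 4891 ± 549.1 in HT vehicle, 5599 ± 203.4 in WT DCS and 5600 ± 284.4 in WT vehicle, and the log2 difference of HT DCS from WT vehicle was -0.34 ± 0.06 (SE, limma, adjusted p = 0.262). Between HT vehicle and WT vehicle it was -0.20 ± 0.06 (limma, adjusted p = 0.999). HT DCS replicates 5 and 6, the libraries poorest in hindbrain markers, held the 2 lowest of the group's Syt2 values. Without them the log2 difference was -0.26, and the part of the hindbrain difference in this result was not tested.

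Vamp1 encodes synaptobrevin-1, the vesicle SNARE protein found above all in brainstem and spinal cord terminals. It had 5462, 6956 and 7329 normalised reads as the lowest, median and highest HT DCS library, against 7564, 7753 and 8157 in WT vehicle, with no overlap. The log2 difference was -0.22 ± 0.05 and -0.13 without HT DCS replicates 5 and 6 (limma, adjusted p = 0.355 with all libraries). Unc13c encodes Munc13-3, a vesicle priming factor of cerebellar granule cells. Its HT DCS libraries ran from 2651 to 2829 normalised reads (median 2745), below WT vehicle at 2947 to 3196 (median 3028), and its log2 difference of -0.15 ± 0.04 was -0.14 without the pair of libraries. Cplx1, complexin-1, a clamp and activator of fusion, averaged 19860 normalised reads in HT DCS, against 21320 in WT vehicle, with ranges that overlapped. Across the 29 vesicle release genes, however, 12 were higher and 17 lower in HT DCS. The median log2 difference was -0.01, and -0.0008 without HT DCS replicates 5 and 6. Libraries of HT DCS and WT vehicle did not overlap for 3 lower members and 1 higher member, beside 0.18% and 0.133% of all genes. An unadjusted p under 0.05 was reached by 1 higher and 5 lower members (3.45% and 17.2% of the list, beside 3.09% and 4.09% of all genes).

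Calcium sensors and channels of neurons were also among the lower genes. Hpca encodes hippocalcin, a calcium-myristoyl switch protein of pyramidal and striatal neurons. Its libraries ran from 9232 to 10800 normalised reads in HT DCS (median 10340) and from 10950 to 11550 in WT vehicle (median 11340), a log2 difference of -0.14 ± 0.03. Its HT vehicle mean was 10500 and its WT DCS mean 11400, so that both heterozygous groups had lower means than both wild-type groups. Hpcal1, a close relative, averaged 2415 normalised reads in HT DCS, against 2704 in WT vehicle, with overlap, and its log2 difference of -0.17 was -0.09 without HT DCS replicates 5 and 6. In the list of neuronal calcium sensors 7 of 10 genes were lower in HT DCS, 3 of them at an unadjusted p under 0.05 (30%, beside 4.09% of all genes). The list median was -0.04, and -0.02 without HT DCS replicates 5 and 6.

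Of 24 voltage-gated sodium and potassium channel genes, 17 were lower in HT DCS and 4 of these reached an unadjusted p under 0.05 (16.7%, beside 4.09% of all genes), with a list median of -0.03. Kcnab1 encodes a beta subunit that speeds inactivation of potassium channels. It ran from 2584 to 2956 normalised reads in HT DCS (median 2929) and from 2995 to 3316 in WT vehicle (median 3085), with no overlap and a log2 difference of -0.13 ± 0.04. Scn4b encodes the sodium channel beta-4 subunit, known for resurgent current and enriched in striatum and fast-firing neurons. Its values were 3173, 4157 and 4866 normalised reads in HT DCS, against 4691, 5035 and 5942 in WT vehicle, so the groups overlapped at the edge. Means in HT vehicle and WT DCS were 4389 and 5035, and the log2 difference of HT DCS from WT vehicle was -0.31 ± 0.08 (limma, adjusted p = 0.472). That difference was -0.24 without HT DCS replicate 6.

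**Figure D2:**
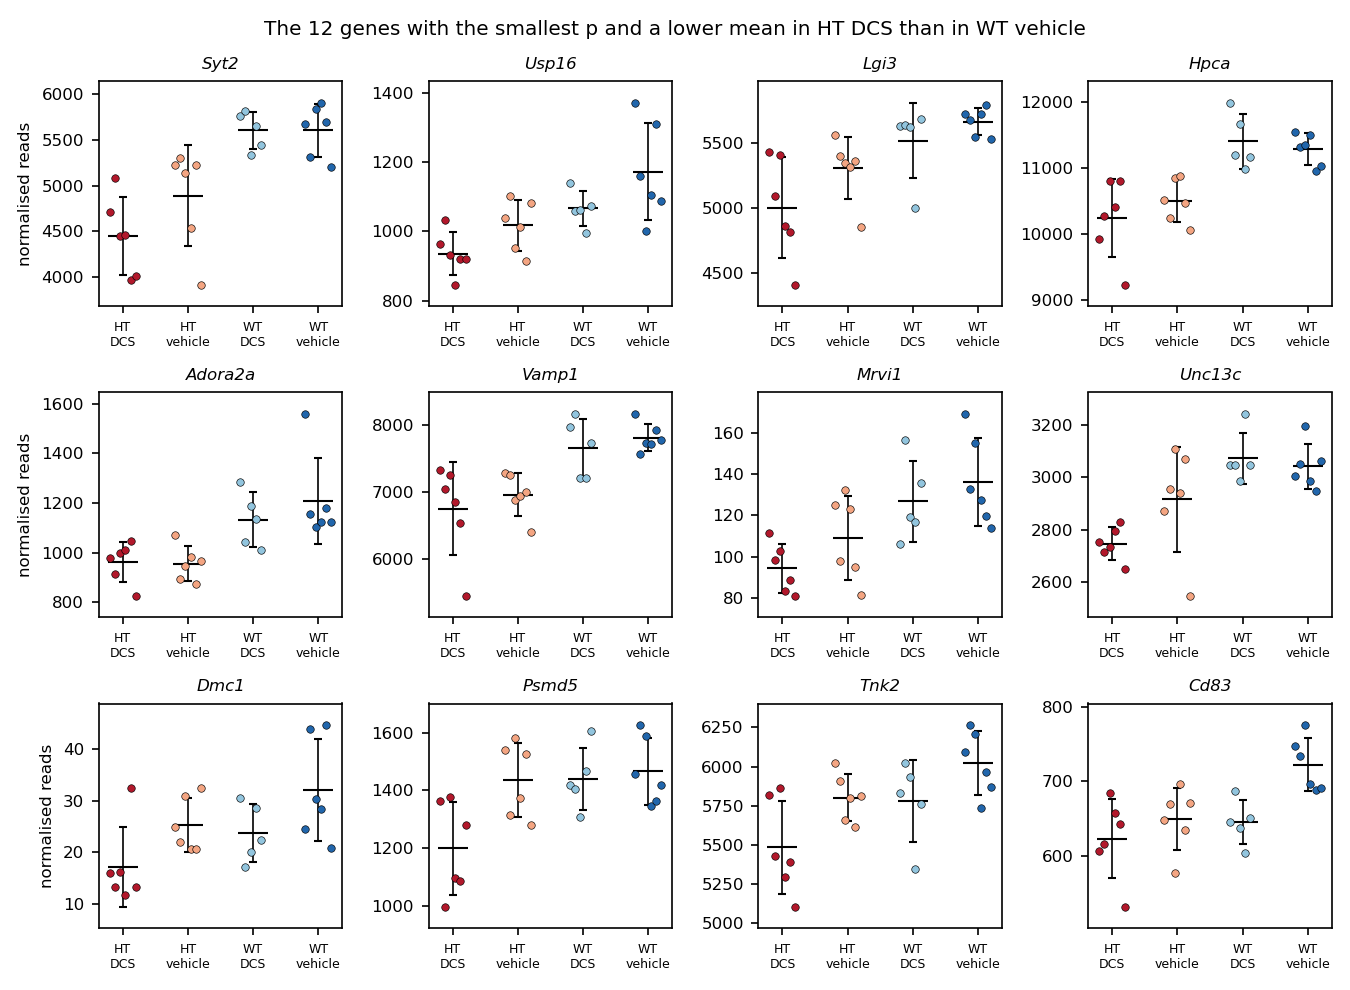
Normalised reads (y axis, not starting at 0) of the 12 genes lower in HT DCS whose p was smallest, predicted models aside, by group on the x axis. Points are libraries, horizontal lines means and bars 1 SD. The HT DCS libraries of Syt2, at 3967 to 5082 normalised reads, lie below every WT vehicle library, while its WT DCS and WT vehicle means are 5599 and 5600.

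Adora2a encodes an adenosine receptor of striatopallidal neurons, the striatal cells of the indirect pathway. It had 826.7, 988.9 and 1047 normalised reads as the lowest, median and highest HT DCS library, against 1104, 1141 and 1557 in WT vehicle, with no overlap. Means in HT DCS, HT vehicle, WT DCS and WT vehicle were 962.7, 955.5, 1132 and 1207 normalised reads. The log2 difference of HT DCS from WT vehicle was -0.32 ± 0.08 (limma, adjusted p = 0.355), that between HT vehicle and WT vehicle -0.33 ± 0.08 (limma, adjusted p = 0.786), and that of HT DCS from HT vehicle was 0.01. WT vehicle replicate 1 held the value of 1557, and leaving it out gave -0.24, the value nearest to 0 among those with 1 library left out.

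The striatal projection neuron list had 14 of 18 genes lower in HT DCS, 9 of them at an unadjusted p under 0.05 (50%, beside 4.09% of all genes). Its median log2 difference was -0.08, -0.09 without HT DCS replicates 5 and 6 and -0.07 without WT vehicle replicate 1. The list mean of WT vehicle replicate 1 lay 0.17 above its group mean, and that of WT vehicle replicate 2 lay at -0.10. The list median was -0.11 for HT vehicle against WT vehicle, 0.003 for HT DCS against HT vehicle and -0.01 for WT DCS against WT vehicle. Rasd2, which encodes the striatal GTPase Rhes, averaged 2301 ± 135 normalised reads in HT DCS, 2440 in HT vehicle, 2616 in WT DCS and 2613 ± 168.4 in WT vehicle. Drd2, the dopamine receptor of the indirect pathway, had a median of 611.2 normalised reads in HT DCS, against 656.9 in WT vehicle. Penk, the enkephalin precursor of the same cells, had medians of 3983 and 4336 in that order of groups. Members with the opposite sign were Foxp1, Meis2, Pde10a and Gpr6, with log2 differences from 0.01 to 0.06. In bulk tissue, fewer cells of a type and less RNA per cell cannot be told apart, here and in every list below.

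The other lower genes belong to no common group. Usp16, a deubiquitinase of histone H2A, had 846.6, 926.1 and 1032 normalised reads as the lowest, median and highest HT DCS library, against 1001, 1133 and 1369 in WT vehicle. Its means stepped through the groups, at 935.8 in HT DCS, 1017 in HT vehicle, 1066 in WT DCS and 1172 in WT vehicle, and its log2 difference was -0.32 ± 0.06 (limma, adjusted p = 0.262). Lgi3, a secreted protein of the LGI family found at axons and synapses, ran from 4411 to 5430 normalised reads in HT DCS and from 5529 to 5793 in WT vehicle, without overlap. Its log2 difference was -0.09 within replicates 1 to 3 and -0.28 within replicates 4 to 6. Mrvi1, a partner of the inositol trisphosphate receptor in smooth muscle, ran from 80.97 to 111.3 in HT DCS and from 113.9 to 169.3 in WT vehicle, also without overlap. Cd83, an immunoglobulin-family surface protein of immune cells, averaged 622.7 normalised reads in HT DCS, 649.2 in HT vehicle, 644.7 in WT DCS and 722.2 in WT vehicle, with the highest mean in WT vehicle. The proteasome assembly chaperone gene Psmd5 averaged 1200 normalised reads in HT DCS, against 1436, 1441 and 1467 in HT vehicle, WT DCS and WT vehicle. Tnk2, a non-receptor tyrosine kinase, and Dmc1, a recombinase of meiosis, had log2 differences of -0.14 and -0.89. Dmc1 was low in all groups, at means of 17.18 normalised reads in HT DCS, against 32.13 in WT vehicle.

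Among the higher genes, Lrp5 (chromosome 19, 3584828 to 3686564, minus strand), a co-receptor for Wnt ligands, had the smallest p. It had 349.9, 372 and 387.2 normalised reads as the lowest, median and highest HT DCS library, against 275.6, 308.2 and 328.5 in WT vehicle, with no overlap. Means were 370.1 ± 14.73 in HT DCS, 355 ± 14.84 in HT vehicle, 342.4 ± 27.79 in WT DCS and 306.1 ± 20.62 in WT vehicle, a log2 difference of 0.27 ± 0.06 from WT vehicle (limma, adjusted p = 0.332). WT vehicle held the low values, and the log2 differences of HT vehicle and WT DCS from it were 0.21 and 0.16.

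Cdhr1, a cadherin-related gene of the mitral and tufted cells of the olfactory bulb, had 1216, 1357 and 1574 normalised reads in HT DCS, against 913.7, 1126 and 1172 in WT vehicle, with no overlap (log2 difference 0.31 ± 0.07, limma, adjusted p = 0.355). In replicates 1 to 3 alone the difference was 0.45, and in replicates 4 to 6 it was 0.17. Of 10 olfactory bulb genes, 9 were higher in HT DCS, 3 of them at an unadjusted p under 0.05, and 1 was lower at that level. These were 30% and 10% of the list, beside 3.09% and 4.09% of all genes. Tbx21, a transcription factor of the same projection neurons, averaged 70.89 normalised reads in HT DCS, 62.53 in HT vehicle, 63.6 in WT DCS and 51.19 in WT vehicle. The lower one was Calb2, calretinin, which many other neurons share. The list median was 0.12 for HT DCS against WT vehicle, 0.14 for HT vehicle against WT vehicle and 0.12 for WT DCS against WT vehicle, which all use the same WT vehicle libraries.

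Ubr3, an E3 ubiquitin ligase of the N-degron family, ran from 8205 to 9250 normalised reads in HT DCS (median 8373) and from 7312 to 7899 in WT vehicle (median 7681). Rhobtb3 ran from 889.5 to 981.1 in HT DCS and from 778.8 to 876.8 in WT vehicle. Neither overlapped between groups, and their log2 differences were 0.16 and 0.17. Apaf1, the core of the apoptosome, averaged 622.9 ± 97.27 normalised reads in HT DCS, 496.7 in HT vehicle, 573.3 in WT DCS and 470.2 ± 37.53 in WT vehicle, so both DCS groups had the higher means.

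Zfp326, an RNA-binding zinc finger protein, and Suco, a protein of the endoplasmic reticulum membrane, had their highest means in HT DCS. Zfp326 averaged 1001 normalised reads in HT DCS, against 857.1, 858 and 827.9 in HT vehicle, WT DCS and WT vehicle. Suco averaged 1509 in HT DCS, against 1250, 1298 and 1275. Npas3, a neuronal bHLH-PAS transcription factor, also had its highest mean in HT DCS, at 634.3 ± 125.5 in HT DCS and 505.2 ± 20.84 in WT vehicle, with log2 differences of 0.10 in replicates 1 to 3 and 0.51 in replicates 4 to 6. Differences of HT DCS from HT vehicle did not pass the adjusted threshold for any of the 3 (log2 0.23, 0.27 and 0.25, limma, adjusted p = 0.867, 0.669 and 0.973).

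For Ptk2, focal adhesion kinase, and Hnrnpa1, a splicing regulator, the WT vehicle mean was the lowest of the 4 groups. Ptk2 averaged 3591, 3584 and 3533 normalised reads in HT DCS, HT vehicle and WT DCS, against 3250 in WT vehicle. Hnrnpa1 averaged 6849, 6787 and 6723, against 6366. Otogl, an otogelin-like glycoprotein gene known from the inner ear, and Brip1, a DNA repair helicase, were low throughout, at means of 48.79 and 18.34 in HT DCS and 32.94 and 7.239 in WT vehicle.

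**Figure D3:**
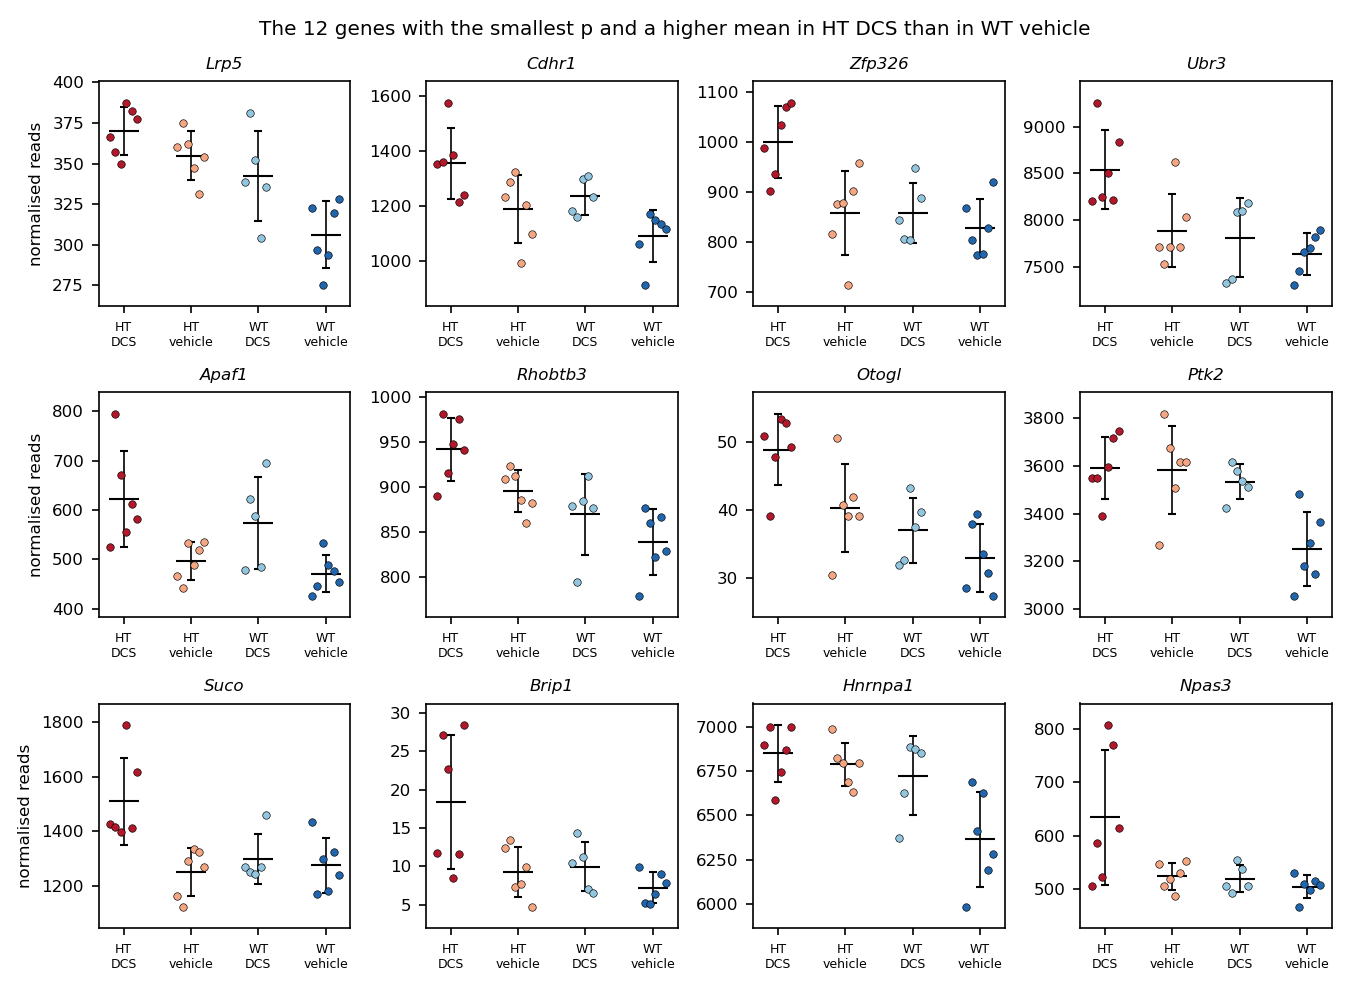
Normalised reads (y axis, not starting at 0) of the 12 genes higher in HT DCS whose p was smallest, predicted models aside, by group on the x axis. Points are libraries, horizontal lines means and bars 1 SD. For Lrp5, Cdhr1, Ubr3 and Rhobtb3 the lowest HT DCS library lies above the highest WT vehicle library, at 349.9 against 328.5 normalised reads for Lrp5.

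Oligodendrocytes wrap axons in myelin, and the third postnatal week is a time of rapid myelination in mouse brain. All 28 measured oligodendrocyte and myelin markers had a lower mean in HT DCS, 19 of them at an unadjusted p under 0.05 (67.9%, beside 4.09% of all genes), and 0 passed the adjusted threshold. The median log2 difference was -0.19. Mbp, myelin basic protein, had 155500, 199100 and 238600 normalised reads as the lowest, median and highest HT DCS library, against 219000, 238200 and 246800 in WT vehicle. The groups overlapped, since HT DCS replicate 3 lay at the WT vehicle level, and the log2 difference was -0.25 ± 0.07 (limma, adjusted p = 0.51), and -0.14 without HT DCS replicates 5 and 6. Sox10, the transcription factor of the whole oligodendrocyte lineage, ran from 2167 to 2555 in HT DCS and from 2587 to 2814 in WT vehicle, the one member without overlap. Cnp, a membrane-bound phosphodiesterase of myelin, averaged 23340 ± 2756 normalised reads in HT DCS, against 26280 ± 821 in WT vehicle, and its log2 difference of -0.18 was -0.10 without the same pair. Tspan2, a tetraspanin of myelinating cells, averaged 9050 ± 623.4 and 9923 ± 572.1 in that order of groups.

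The mean of the myelin list was 11.94 ± 0.20 on the log2 scale in HT DCS and 12.13 ± 0.08 in WT vehicle (SD, n = 6 each). Relative to the WT vehicle mean, the 6 HT DCS libraries lay at -0.02, -0.14, 0.06, -0.29, -0.25 and -0.49, so that replicates 4, 5 and 6 carried most of the difference. The list median was -0.09 within replicates 1 to 3, -0.31 within replicates 4 to 6 and -0.10 without HT DCS replicates 5 and 6. For HT vehicle against WT vehicle it was -0.08, for WT DCS against WT vehicle -0.003 and for HT DCS against HT vehicle -0.13. Oligodendrocyte precursor markers went the other way in 10 of 12 genes, with a median of 0.07, and 0.02 without the pair of libraries. Among them Pdgfra, the growth factor receptor that defines precursors, averaged 2452 ± 140.8 normalised reads in HT DCS, 2409 in HT vehicle, 2271 in WT DCS and 2227 ± 140.2 in WT vehicle.

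Hindbrain markers were lowest in HT DCS replicates 5 and 6, which were also among the 3 lowest of the 12 compared libraries for the myelin list. The list of hindbrain and monoamine markers had 15 of 19 measured genes lower in HT DCS. Of the list, 5 lower (26.3%) and 1 higher (5.26%) reached an unadjusted p under 0.05, beside 4.09% and 3.09% of all genes. The list's summed level ran from 2488 to 3866 normalised reads in HT DCS (median 3633) and from 3201 to 4085 in WT vehicle (median 3859). Hoxb3, a patterning gene of the caudal hindbrain, had 5.867, 26.3 and 39.49 normalised reads in HT DCS, against 23, 47.95 and 61.11 in WT vehicle. Hoxa4 had 1.29, 7.246 and 23.56 in HT DCS, against 11.5, 16.5 and 23.86 in WT vehicle. Means in HT DCS, HT vehicle, WT DCS and WT vehicle were 24.8, 25.98, 40.03 and 45.5 for Hoxb3. For Hoxa4 they were 9.352, 10.36, 17.4 and 17.33. Hoxa5 and Hoxb2 were listed at 0 in at least 1 HT DCS library. The list median of -0.53 was -0.01 without HT DCS replicates 5 and 6, and it was 0.13 within replicates 1 to 3 and -1.12 within replicates 4 to 6. It was -0.29 for HT vehicle against WT vehicle, -0.07 for WT DCS against WT vehicle and -0.17 for HT DCS against HT vehicle. HT vehicle replicates 3, 4 and 6 lay at -0.52, -0.73 and -0.71 from the WT vehicle mean of the list. The myelin list had a median of -0.10 without HT DCS replicates 5 and 6, in which the part of the hindbrain difference was not tested.

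Of the other members of the list, Tph2, the enzyme of serotonin synthesis in the raphe, averaged 246.1 normalised reads in HT DCS, against 256.1 in WT vehicle. Th, the enzyme of dopamine and noradrenaline synthesis, averaged 624.2 and 602.3 in that order of groups. Slc6a5, the glycine transporter of inhibitory neurons in brainstem and spinal cord, averaged 853.4 in HT DCS and 1187 in WT vehicle, with ranges of 421.2 to 1175 and 861.6 to 1366. These 3 genes were chosen after their values were seen.

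**Figure D4:**
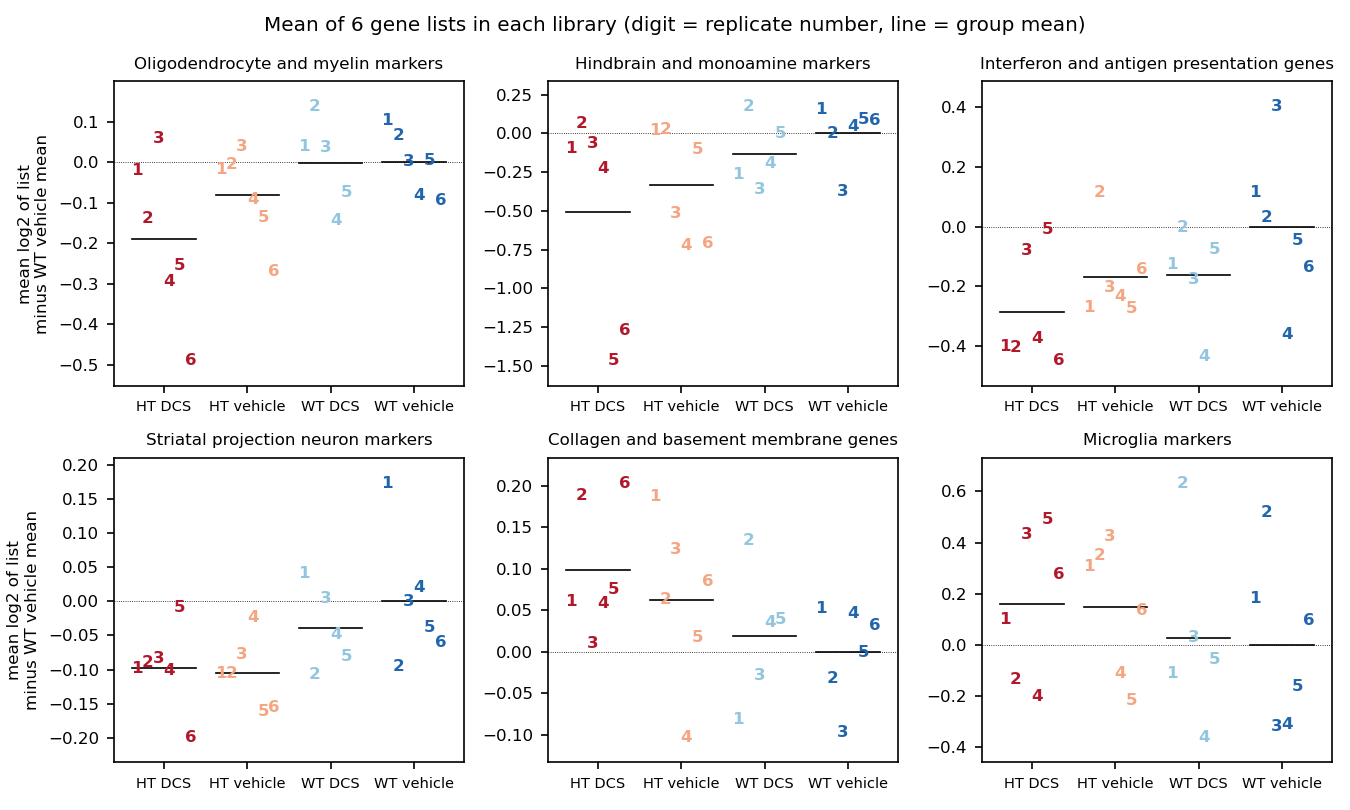
Mean log2 level of 6 gene lists in each library, minus the WT vehicle mean, by group on the x axis. Digits are replicate numbers and lines group means. HT DCS replicates 5 and 6 lie at -1.47 and -1.27 for the hindbrain list, and HT DCS replicates 4, 5 and 6 lie at -0.29, -0.25 and -0.49 for the myelin list, and HT vehicle replicate 6 at -0.27.

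Type I interferon acts through transcription factors that bind interferon response elements in the promoters of antiviral genes, and at rest these genes are read at low levels in brain. Of 24 interferon and antigen presentation genes, 22 had a lower mean in HT DCS, 8 of them at an unadjusted p under 0.05 (33.3%, beside 4.09% of all genes), and 0 passed the adjusted threshold. The median log2 difference was -0.30, and -0.31 without HT DCS replicates 5 and 6. Among members with a mean of at least 50 the median was -0.13. The core letters of such an element, GAAA, any 2 bases and GAAA again (on the other strand TTTC, any 2 bases and TTTC), stood within 250 bases before the RefSeq start in 8 of the 20 members with a promoter in the RefSeq table (40%) and in 936 of all 27025 genes (3.46%). Matches may overlap each other, and a match is a description of letters, not of binding. The 3 promoters shown are those of members with matches and the smallest p. Each run is 160 bases before the start on the gene's strand (RefSeq, GRCm38.p6), 5′ to 3′, with the matched letters in capitals. They are chr4:156200819-156200978 on the minus strand for Isg15, chr19:34640729-34640888 on the plus strand for Ifit1 and chr19:34583369-34583528 on the plus strand for Ifit3.
Isg15: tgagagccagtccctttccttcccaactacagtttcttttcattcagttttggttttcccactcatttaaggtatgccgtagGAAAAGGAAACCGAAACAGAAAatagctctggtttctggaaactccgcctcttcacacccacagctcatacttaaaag
Ifit1: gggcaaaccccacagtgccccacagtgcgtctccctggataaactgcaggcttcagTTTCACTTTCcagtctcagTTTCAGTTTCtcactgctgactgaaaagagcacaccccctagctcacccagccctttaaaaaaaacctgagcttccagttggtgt
Ifit3: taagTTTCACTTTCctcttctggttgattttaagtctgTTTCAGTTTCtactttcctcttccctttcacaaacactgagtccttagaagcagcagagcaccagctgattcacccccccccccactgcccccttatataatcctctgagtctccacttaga

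Isg15, which encodes a ubiquitin-like protein, held 3 overlapping matches, the last ending 57 bases before the start. It had 6.883, 18.59 and 34.46 normalised reads as the lowest, median and highest HT DCS library, against 18.4, 33.66 and 48.7 in WT vehicle, with overlap. Ifit1, which recognises foreign RNA caps, held 2 matches and had 13.24, 28.67 and 43.8 normalised reads in HT DCS, against 24.84, 47.12 and 75.24 in WT vehicle. Ifit3, its partner, held 2 matches and averaged 141.3 normalised reads in HT DCS, 155.8 in HT vehicle, 160.6 in WT DCS and 182.4 in WT vehicle. Irf7, the interferon regulatory factor induced by interferon itself, had medians of 36.34 in HT DCS and 58.38 in WT vehicle (log2 difference -0.66 ± 0.18, limma, adjusted p = 0.452). The class I antigen presentation genes B2m and H2-D1, chosen after their values were seen, averaged 1078 and 1355 normalised reads in HT DCS and 1111 and 1370 in WT vehicle.

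The interferon list averaged 6.75 ± 0.19 on the log2 scale in HT DCS and 7.03 ± 0.26 in WT vehicle. WT vehicle replicate 3 lay 0.40 above its group mean and WT vehicle replicate 4 lay 0.36 below it, while HT DCS replicate 5 lay at -0.01 and replicate 3 at -0.08. The list median was -0.46 within replicates 1 to 3, -0.10 within replicates 4 to 6 and -0.22 without WT vehicle replicate 3. It was -0.15 for HT vehicle against WT vehicle, -0.14 for WT DCS against WT vehicle and -0.10 for HT DCS against HT vehicle. Microglia, the resident immune cells of the brain, had markers with higher means in HT DCS in 20 of 20 genes, 0 of them at an unadjusted p under 0.05, so the lists of interferon genes and microglia had opposite signs. The summed level of the microglia markers ran from 5633 to 9248 normalised reads in HT DCS (median 7352) and from 5208 to 9193 in WT vehicle (median 6413). Itgam, the CD11b integrin, ran from 161.6 to 331.9 in HT DCS and from 151.3 to 269.1 in WT vehicle. The list median of 0.14 was 0.04 without HT DCS replicates 5 and 6. With 1 library left out it ran from 0.08, without WT vehicle replicate 4, to 0.24, without WT vehicle replicate 2, and it was also over 1.5 times smaller or larger without HT DCS replicates 3, 4 or 5 or WT vehicle replicate 3.

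Mural cell and matrix lists had higher means, whereas brain endothelial markers were higher in 7 of 18 genes. Of 17 collagen and basement membrane genes, 15 were higher in HT DCS, 6 of them at an unadjusted p under 0.05 (35.3%, beside 3.09% of all genes), and 1 was lower at that level. The median log2 difference was 0.11, and 0.10 without HT DCS replicates 5 and 6. Nid1, the linker protein nidogen-1, had 1335, 1452 and 1853 normalised reads as the lowest, median and highest HT DCS library, against 1078, 1293 and 1435 in WT vehicle. Col4a2, a chain of basement membrane collagen IV, averaged 3292 ± 291.3 normalised reads in HT DCS, 3217 in HT vehicle, 3102 in WT DCS and 2914 ± 105.9 in WT vehicle. Col6a1 averaged 2590 ± 133.1 in HT DCS and 2389 ± 95.9 in WT vehicle.

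Of 15 marker genes of pericytes and smooth muscle, 12 were higher, 6 of them at an unadjusted p under 0.05 (40%, beside 3.09% of all genes). The median was 0.09, 0.04 without HT DCS replicates 5 and 6, 0.16 without HT DCS replicate 4 and 0.14 without WT vehicle replicate 6. Abcc9 and Kcnj8 encode the paired subunits of the ATP-sensitive potassium channel of pericytes. Abcc9 had 291.4, 337.9 and 403.1 normalised reads in HT DCS, against 262.9, 283.4 and 320 in WT vehicle, and Kcnj8 had 106.9, 133.9 and 152.2, against 79.45, 102.5 and 130.9. Notch3, the receptor that maintains mural cells, averaged 817.9 in HT DCS, 795.9 in HT vehicle, 728 in WT DCS and 695.6 in WT vehicle. Myh11, smooth muscle myosin, averaged 216.2, 217.7, 190.9 and 183 in the same order, so the heterozygous groups had the higher means for both.

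Genes of immature and dividing cells also had higher means. Of 17 immature neuron and axon growth genes, 16 were higher in HT DCS, 3 of them at an unadjusted p under 0.05 (17.6%, beside 3.09% of all genes). The median was 0.08, 0.05 without HT DCS replicate 6 and 0.05 without HT DCS replicates 5 and 6. Tubb2b, a neuronal beta-tubulin, averaged 8324 ± 794.2 normalised reads in HT DCS, against 7448 ± 623.2 in WT vehicle. Nnat, neuronatin, averaged 5953 ± 573.8 and 5405 ± 211.2 in that order of groups. Dividing cell markers were higher in 15 of 18 genes, 2 of them at an unadjusted p under 0.05 (11.1%, beside 3.09% of all genes). The median was 0.28, 0.16 without HT DCS replicates 5 and 6, 0.12 without HT DCS replicate 6, 0.16 without HT DCS replicate 1 and 0.09 among members with a mean of at least 50. Ccna2, cyclin A2, had 99.97, 118 and 144.4 normalised reads in HT DCS, against 78.65, 87.69 and 121.9 in WT vehicle. HT DCS replicate 6 had the highest list mean of dividing cells, 0.65 above the WT vehicle mean, and HT DCS replicates 4 and 5 lay at -0.05 and -0.04.

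The next lists, of receptors and of activity genes, had median log2 differences between -0.03 and 0.01. Of 16 AMPA receptor and auxiliary subunit genes, 9 were higher and 7 lower in HT DCS, and 2 and 1 of them reached an unadjusted p under 0.05. These were 12.5% and 6.25% of the list, beside 3.09% and 4.09% of all genes. The auxiliary subunit gene Shisa9 averaged 2455 ± 95.69 normalised reads in HT DCS, against 2280 ± 111.9 in WT vehicle, and Gria2, the subunit that blocks calcium entry, averaged 17310 ± 1685 and 16010 ± 646.5. Metabotropic glutamate receptors were higher in 4 of 7 genes, 1 of them at an unadjusted p under 0.05 (14.3%). It was Grm7, a presynaptic receptor, at means of 1735 in HT DCS and 1575 in WT vehicle. Among 16 GABA-A receptor genes, 9 were higher and 7 lower, 1 in each direction at an unadjusted p under 0.05 (6.25% each). Gabra6, the cerebellar granule cell subunit, averaged 2208 ± 228.9 in HT DCS and 2470 ± 163.6 in WT vehicle. Its log2 difference of -0.17 was -0.11 without HT DCS replicate 5, which held the lowest value, 1831 normalised reads. The 3 list medians were 0.01, 0.004 and 0.01. Activity-induced early genes, which neurons transcribe within minutes of firing, were higher in 23 and lower in 28 of 51 genes. Of the list, 1 lower gene reached an unadjusted p under 0.05 (1.96%, beside 4.09% of all genes). That gene was Jun, at 1780 ± 150.9 normalised reads in HT DCS, 1950 in HT vehicle, 1974 in WT DCS and 1998 ± 118.7 in WT vehicle. The list mean varied between libraries of the same group, with an SD of 0.18 in HT DCS and 0.20 in WT vehicle on the log2 scale.

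Interneuron markers were lower in 14 of 21 genes. Of the list, 4 lower (19%) and 1 higher (4.76%) reached an unadjusted p under 0.05, beside 4.09% and 3.09% of all genes. The list median of -0.02 was 0.02 without HT DCS replicates 5 and 6. Nos1, neuronal nitric oxide synthase, ran from 3163 to 3545 normalised reads in HT DCS and from 3534 to 3813 in WT vehicle, overlapping in a single pair of libraries. Pvalb, parvalbumin of fast-spiking cells, averaged 2308 ± 295.4 in HT DCS and 2520 ± 114.7 in WT vehicle, and its log2 difference of -0.14 was -0.02 without those libraries. Among 76 nuclear genes for oxidative phosphorylation 64 were lower, 9 of them at an unadjusted p under 0.05 (11.8%, beside 4.09% of all genes). Sdhc, a membrane anchor of succinate dehydrogenase, averaged 2536 ± 114.2 normalised reads in HT DCS, 2547 in HT vehicle, 2563 in WT DCS and 2748 ± 89.5 in WT vehicle, with the highest mean in WT vehicle. The list median of -0.05 was -0.003 without HT DCS replicates 5 and 6.

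**Figure D5:**
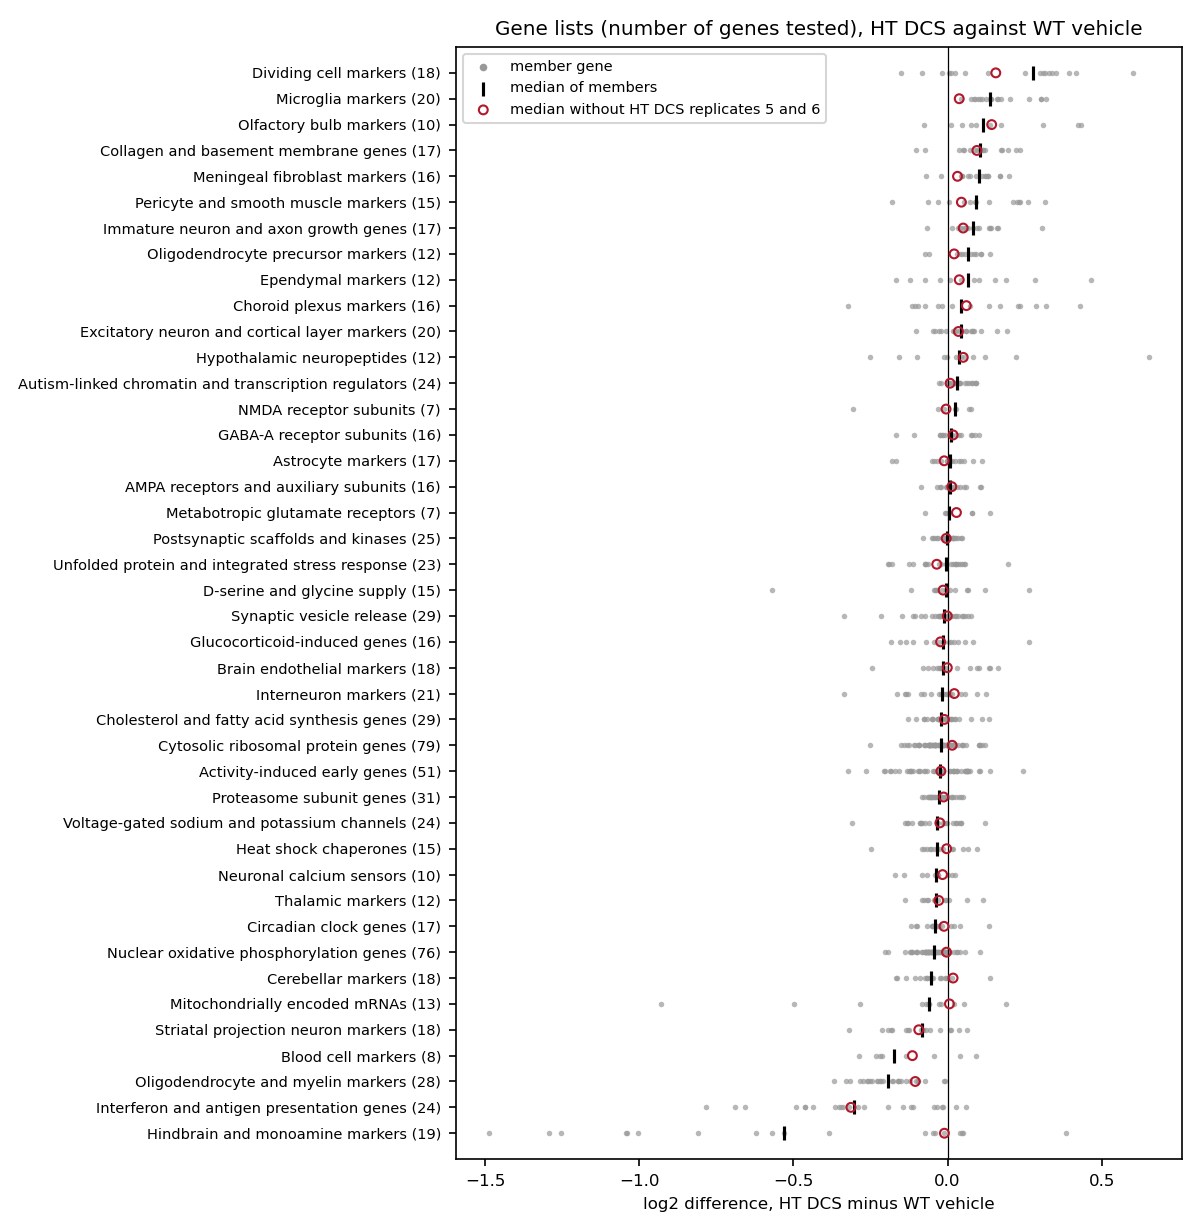
Log2 difference of HT DCS minus WT vehicle (x axis) for the genes of each list, with the number tested in brackets. Grey points are genes, black bars medians and red circles medians without HT DCS replicates 5 and 6. The hindbrain median is -0.53 with and -0.01 without those libraries, while the interferon median is -0.30 and -0.31 and the striatal median -0.08 and -0.09.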

How the data were processed

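Libraries were made from brain RNA by a strand-specific poly(A) kit, per the labels' protocols. The deposited table, 18848 genes across 23 libraries, holds a signal: gene reads rescaled by the authors to be comparable between libraries. The software listed in the submitters' processing notes, without saying which step used it, is DESeq2 1.26.0, Salmon 1.1.0 and R 3.6.2, on GRCm38. The sources used here do not give the annotation release or filter. Rescaled totals hide any difference in total RNA, and near-identical genes may trade reads. Low values lay within 0.15 of a whole multiple of 1 read for 57.2% to 77.2% of values per library, so whole reads were not recovered and no count test was run. Of the table's columns, 0 lacked a sample.

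Values were analysed as log2(value + 1) with limma 3.58.1 in R 4.3.3, fitting a mean for each group in all 23 libraries together (eBayes, trend and robust options on). Tests were two-sided, and p-values were adjusted by Benjamini-Hochberg across 17256 genes (mean of 10 or more) and called at 0.05. On this scale the fold change of low genes is understated. The fit was tested on simulated data.

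Genes were named by rule: all subunits of the NMDA receptor, the 12 genes with the smallest p in each direction (fewer having passed the threshold), without predicted models, and up to 4 members with the smallest p of each of 21 gene lists. Not every gene that the rule names is described, and some items are not reported here. The 42 lists and the groups were chosen with earlier results of these data known, and the 21 described were picked after their values were seen. Lists are given as counts and medians, without a test. Gene coordinates are from GENCODE M21 (GRCm38) and promoters from RefSeq (GRCm38.p6), searched 250 bases before each start.

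Alternatives were pseudocounts of 0.5 and 5, no filter and a mean of at least 50, no trend, only the 12 libraries, quantile normalisation, centring on library medians, array weights, replicate terms and each library left out. Leaving out HT DCS replicates 5 and 6 was added after seeing the data. No batch is labelled. Between HT DCS and WT vehicle, deviations of replicates with the same number were weakly correlated (r from -0.068 to 0.129 over 6 numbers). Numbers were therefore not taken to pair libraries, but HT vehicle and WT DCS were not checked in this way.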

Additional observations from a re-analysis of the deposited data

Results flagged for a closer look

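Among 248 sets of 6 libraries examined, 13 held a library far from the other 5, and about 1 in 20 would by chance. The flags are given as values.

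In WT vehicle replicate 1, 5 genes stood above the other libraries of their group. Adora2a had 1557 normalised reads there and 1104 to 1178 in the others. Drd2 had 853.9 there and 637.9 to 718.4 in the others, and Penk had 5239 and 4042 to 4419. All 3 mark the same striatal cells. Without this library their log2 differences between HT DCS and WT vehicle were -0.24, -0.15 and -0.13, the nearest to 0 among the values with 1 library left out. Grm8 had 633.5 normalised reads in that library and 547 to 574.8 in the others, and Hoxd3 had 67.18 and 16.97 to 30.99.

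In the HT DCS group, Dmc1 had 32.52 normalised reads in replicate 5 and 11.8 to 16.14 in the others. Grm7 had 1447 in replicate 3 and 1743 to 1880 in the others. Igfbpl1, a gene of immature neurons, had 416.2 in replicate 6 and 223.1 to 282.7 in the others. The mean log2 level of pericyte and smooth muscle markers was 7.979 in replicate 4 and 8.19 to 8.286 in the others. That of voltage-gated channels was 12.15 in replicate 6 and 12.25 to 12.28 in the others.

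Among the other WT vehicle libraries, Scn1a had 6088 normalised reads in replicate 4 and 6294 to 6409 in the rest. The hindbrain list averaged 5.879 in replicate 3 and 6.257 to 6.41 in the rest, and the olfactory bulb list 7.822 in replicate 2 and 7.957 to 8.009 in the rest.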

How the results depend on the processing

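The counts of 0 genes higher and 0 genes lower past the adjusted threshold were also found with each library left out (range 0 to 0) and under all other settings except the fit with the replicate number as a block. With the number of the titles as a replicate block, 1 gene was higher and 10 were lower (limma, Syt2 and Scn4b at adjusted p = 0.0104, Usp16 and Tmem88b at 0.0414, Adora2a, Vamp1, Lgi3 and Plekhh1 at 0.0431 and Cdc42ep2 at 0.044 among them). With the number of the descriptions, which differs for 1 WT DCS library, 0 were higher and 2 were lower (Syt2 at adjusted p = 0.0319 and Scn4b at 0.0204), and with the block in the 12 libraries alone there were 0 of each. Deviations of same-numbered libraries of HT DCS and WT vehicle correlated at r from -0.068 to 0.129. For replicates 2 and 6 the value exceeded the highest with another number (0.054 against 0.043, and 0.129 against 0.084). The highest of several values tends to exceed a single value, so that comparison cannot decide whether numbers pair libraries. HT vehicle and WT DCS were not checked for this. On the myelin list, replicate 6 was the lowest of HT DCS, HT vehicle and WT vehicle, at -0.49, -0.271 and -0.094 from the WT vehicle mean. In WT DCS replicate 4 was the lowest, at -0.145. Whether numbers mark a shared batch was not tested. Counts at an unadjusted p under 0.05 ranged from 365 to 781 higher and from 471 to 1013 lower with 1 library left out, the extremes without HT DCS replicate 6 and without HT DCS replicate 3.

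Over the settings other than splits by replicate number, signs of named genes turned in 4 NMDA subunits whose differences were near 0. Grin1 was 0.0095 under quantile normalisation and -0.0302 to 0.0075 with 1 library left out. Grin2a was -0.005 to 0.0598 and Grin2d -0.0036 to 0.0504 with 1 library left out. Without HT DCS replicates 5 and 6 Grin2a was -0.0054, Grin2c 0.0035 and Grin2d -0.0048. The medians of 18 of the 42 lists changed sign in at least 1 such setting, all of them at or under 0.0654 in size. Within replicates 1 to 3 or 4 to 6 alone, 17 lists changed sign, among them the hindbrain list at 0.13 within replicates 1 to 3. Of the 103 named genes, 4 did, all within replicates 1 to 3: Grin2a (-0.05), Grin2b (-0.05), Grin3b (0.18, against -0.31 in all) and Grm3 (-0.03). The cause was not tested. A mean of at least 50 left 90 of the 103 named genes. Low genes such as the Hox and interferon genes rest on few reads, which limits their precision.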

Other observations

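Lists not described above had these values in HT DCS against WT vehicle. Autism-linked chromatin and transcription regulators were higher in 21 of 24 genes, with a median log2 difference of 0.03, and 0.01 without HT DCS replicates 5 and 6. Proteasome subunit genes were lower in 24 of 31 (median -0.03), circadian clock genes in 13 of 17 (median -0.04) and cytosolic ribosomal protein genes in 54 of 79 (median -0.02). Meningeal fibroblast markers were higher in 14 of 16 genes, 0 of them at an unadjusted p under 0.05, and their median of 0.10 was 0.03 without that pair of libraries. Cerebellar markers were lower in 15 of 18 genes, and their median of -0.05 was 0.02 without the pair. HT DCS replicate 5 lay at -0.36 from the WT vehicle mean of the cerebellar list, and HT DCS replicate 6 at -0.01. Thalamic markers were lower in 9 of 12 (median -0.04). Excitatory neuron and cortical layer markers were higher in 14 of 20 (median 0.04), 4 of them at an unadjusted p under 0.05 (20%, beside 3.09% of all genes).

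Of 15 genes for supply of D-serine and glycine, co-agonists whose site D-cycloserine binds, 6 were higher and 9 lower, with a median of -0.005. In this list 1 higher (6.67%) and 2 lower (13.3%) genes reached an unadjusted p under 0.05, beside 3.09% and 4.09% of all genes. Slc6a5, described above with the hindbrain list, is also a member. Postsynaptic scaffolds and kinases were higher in 11 and lower in 14 of 25 genes, 0 of them at an unadjusted p under 0.05, with a median of -0.001. Astrocyte markers were higher in 9 of 17 (median 0.01), and the brain endothelial median was -0.02. Stress programmes were mixed, with 11 higher and 12 lower of 23 unfolded protein and integrated stress response genes and 7 higher and 9 lower of 16 glucocorticoid-induced genes.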
